A study of Saccharomyces cerevisiae with 18 samples.

Results

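The 8 RNAs described here are noncoding RNAs of Saccharomyces cerevisiae that fold and work inside RNA-protein particles. They were taken by their row names from the deposited count table, in which they are 8 of 6837 rows. Spliceosomal RNAs are snR6 (U6), LSR1 (U2), snR19 (U1) and snR14 (U4). The others are SCR1, the RNA of the signal recognition particle (SRP), RPR1 and NME1, the RNAs of RNase P and RNase MRP, and TLC1, the telomerase RNA. All 8 passed the filter on low counts, snR6 through the groups in which it is high, and none overlaps another annotated gene.

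The measurements are RNA-seq counts of poly(A) RNA from BY4742, a haploid alpha strain without working HIS3, LEU2, LYS2 and URA3. There are 6 groups of 3 libraries: set2Δ, bre1Δ and wild type (WT), sampled on day 4 and on day 1 of chronological aging, which means survival in a culture that is no longer dividing. SET2 encodes the histone H3 lysine methyltransferase of transcribed genes, and BRE1 encodes the ubiquitin ligase of histone H2B. All 3 strains were grown in rich medium with no treatment, and the groups share the strain background. How the deletions were made, and whether replicates were separate cultures, is not given in the sources used here, so p-values measure the spread between these libraries only.

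As background, splicing begins when U1 pairs with the 5′ splice site and U2 with the branch site, after which U4 hands U6 over to form the catalytic centre. SCR1 carries ribosomes that make secreted proteins to the endoplasmic reticulum, RPR1 removes the 5′ leader of pre-tRNA, NME1 cuts pre-rRNA, and TLC1 holds the template for telomere repeats. U6, SCR1 and RPR1 are made by RNA polymerase III, and U1, U2, U4 and TLC1 by RNA polymerase II. The mature forms lack a poly(A) tail, precursors and discarded copies can carry a short one added by the TRAMP complex, and a minor polyadenylated form of TLC1 is known. Reads of such RNAs in libraries made from poly(A) RNA therefore need not follow the amount of the mature RNA, and the part this has in the values below was not tested.

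The sequences below come from the RefSeq R64 reference, the sequence of the sacCer3 build named for the deposited tables, and show what the reads of the spliceosomal and telomerase RNAs stand for. Capitals mark the stretch that pairs or templates, or the Sm protein site in U4. U6 is printed whole (chrXII:366235-366346, plus strand, 112 bases) with the ACAGAGA box that pairs with the 5′ splice site at bases 47 to 53.
U6: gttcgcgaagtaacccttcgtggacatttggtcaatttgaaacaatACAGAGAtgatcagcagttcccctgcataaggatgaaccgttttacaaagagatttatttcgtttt
U4 is printed whole (chrV:167427-167586, minus strand, 160 bases) with the Sm site AATTTTTGG at bases 143 to 151.
U4: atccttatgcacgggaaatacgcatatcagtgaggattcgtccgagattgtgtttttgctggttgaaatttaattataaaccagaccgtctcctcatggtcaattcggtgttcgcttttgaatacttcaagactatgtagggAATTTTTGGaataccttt
Of U1, which is 568 bases long, the first 60 are given (chrXIV:230613-230672, minus strand), with ACTTACC, which pairs with the 5′ splice site, at bases 3 to 9.
U1: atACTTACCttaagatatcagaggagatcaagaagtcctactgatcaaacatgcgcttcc
Of U2, which is 1175 bases long, the first 60 are given (chrII:681803-681862, minus strand), with GTAGTA, which pairs with the branch site, at bases 34 to 39.
U2: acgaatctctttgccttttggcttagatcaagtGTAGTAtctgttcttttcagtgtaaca
TLC1 spans chrII:307587-308887 on the plus strand, and its bases 438 to 513 (chrII:308024-308099) hold the template at bases 468 to 483, found as the longest run of A and C that begins and ends with C.
TLC1: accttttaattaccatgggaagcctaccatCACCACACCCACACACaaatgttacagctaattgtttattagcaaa
Among adjoining windows of the printed length along the nuclear chromosomes, both strands searched, ACAGAGA occurred in 1.54%, AATTTTTGG in 0.619%, ACTTACC in 0.544%, GTAGTA in 2.74% and the template in 0.023%. SCR1 lies at chrV:441987-442508 on the plus strand, RPR1 at chrV:117667-118035 on the minus strand and NME1 at chrXIV:585587-585926 on the plus strand. The longest run of A was 7 bases in U2 and in TLC1, and between 3 and 5 in the other 6 RNAs.

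Library totals ranged from 8038470 to 29514490 counts. SET2 had 15 reads over the 3 set2Δ libraries of day 4 and 20 over those of day 1, and BRE1 had 2 and 0 reads over the bre1Δ libraries of day 4 and day 1. URA3, LEU2 and LYS2 had at most 11 reads in any library, while HIS3 was read in all of them, with 146 to 1784 reads. The alpha-specific gene STE3 was read at 37.6 to 53.5 CPM (counts scaled to a common library total), while the a-specific receptor gene STE2, which an alpha strain should not use, was read at 10.1 to 44.7 CPM. In the set2Δ group of day 4, replicate 3 was the highest library for 8 of the 8 RNAs and replicate 2 the lowest for 7, so values without these libraries are given where they change a call. After TMM scaling the 6320 tested genes had a median log2 fold change between -0.10 and 0.04. By library size alone, 74.1% of called genes were higher in set2Δ than in WT at day 1, against 48.9% after TMM. The other splits moved by over 10 percentage points were 60.7% against 44.1% for set2Δ over WT at day 4, 74.8% against 50% for bre1Δ over WT at day 1 and 62.2% against 51.9% for bre1Δ over WT at day 4. With upper-quartile scaling 35.5% of called genes rose by day 4 in set2Δ, against 47.9% after TMM.

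In WT, reads of all 8 RNAs were higher at day 4 than at day 1, by 2.30-fold for TLC1 up to 71.0-fold for U6, a fold that rests on 7 reads in WT at day 1. In set2Δ, 5 of the 8 were higher at day 4, RPR1 and TLC1 were lower and SCR1 did not pass the test. In bre1Δ no RNA was higher at day 4: U4, RPR1 and NME1 were lower and the other 5 did not pass the test. Each comparison used edgeR's quasi-likelihood F test, two-sided, with Benjamini-Hochberg adjustment over the 6320 genes tested and a threshold of 0.05. In WT 37.2% of all tested genes were called higher at day 4 and 40.5% lower, 77.7% in all. In set2Δ 34.3% were called higher and 37.3% lower at day 4, and in bre1Δ 37.9% higher and 38.4% lower. The median log2 fold change of the 8 RNAs between day 4 and day 1 was 0.76 in set2Δ, -0.59 in bre1Δ and 2.79 in WT. Since these are bulk samples, fewer cells that hold an RNA and less of the RNA per cell cannot be told apart.

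At day 1, reads of 7 of the 8 RNAs were higher in set2Δ than in WT and TLC1 was lower, where 37.9% of all tested genes were called higher and 39.5% lower. The TLC1 call depended on scaling, and by library size alone it was called higher (0.20, edgeR adjusted p = 0.0234). In bre1Δ at day 1, U2 and NME1 were higher, SCR1 and TLC1 were lower and the other 4 did not pass the test. By library size alone U4 (0.65, edgeR adjusted p = 0.00469), U1 (0.62, edgeR adjusted p = 0.026) and RPR1 (0.53, edgeR adjusted p = 0.00225) passed as higher and TLC1 did not pass (0.080, edgeR adjusted p = 0.349). In this comparison with TMM, 35.8% of all tested genes were called higher and 35.8% lower. At day 4, 5 RNAs (U2, U1, RPR1, NME1 and TLC1) were lower in set2Δ than in WT, where 34.7% of all tested genes were called higher and 44% lower, 78.7% in all. All 8 were lower in bre1Δ than in WT at day 4, where 44.8% of all tested genes were called higher and 41.6% lower, 86.4% in all. These comparisons share WT libraries with each other and with the WT day comparison. Median log2 fold changes of the 8 RNAs against WT were 1.096 for set2Δ and 0.34 for bre1Δ at day 1, and -0.76 for set2Δ and -3.16 for bre1Δ at day 4.

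**Figure D1:**
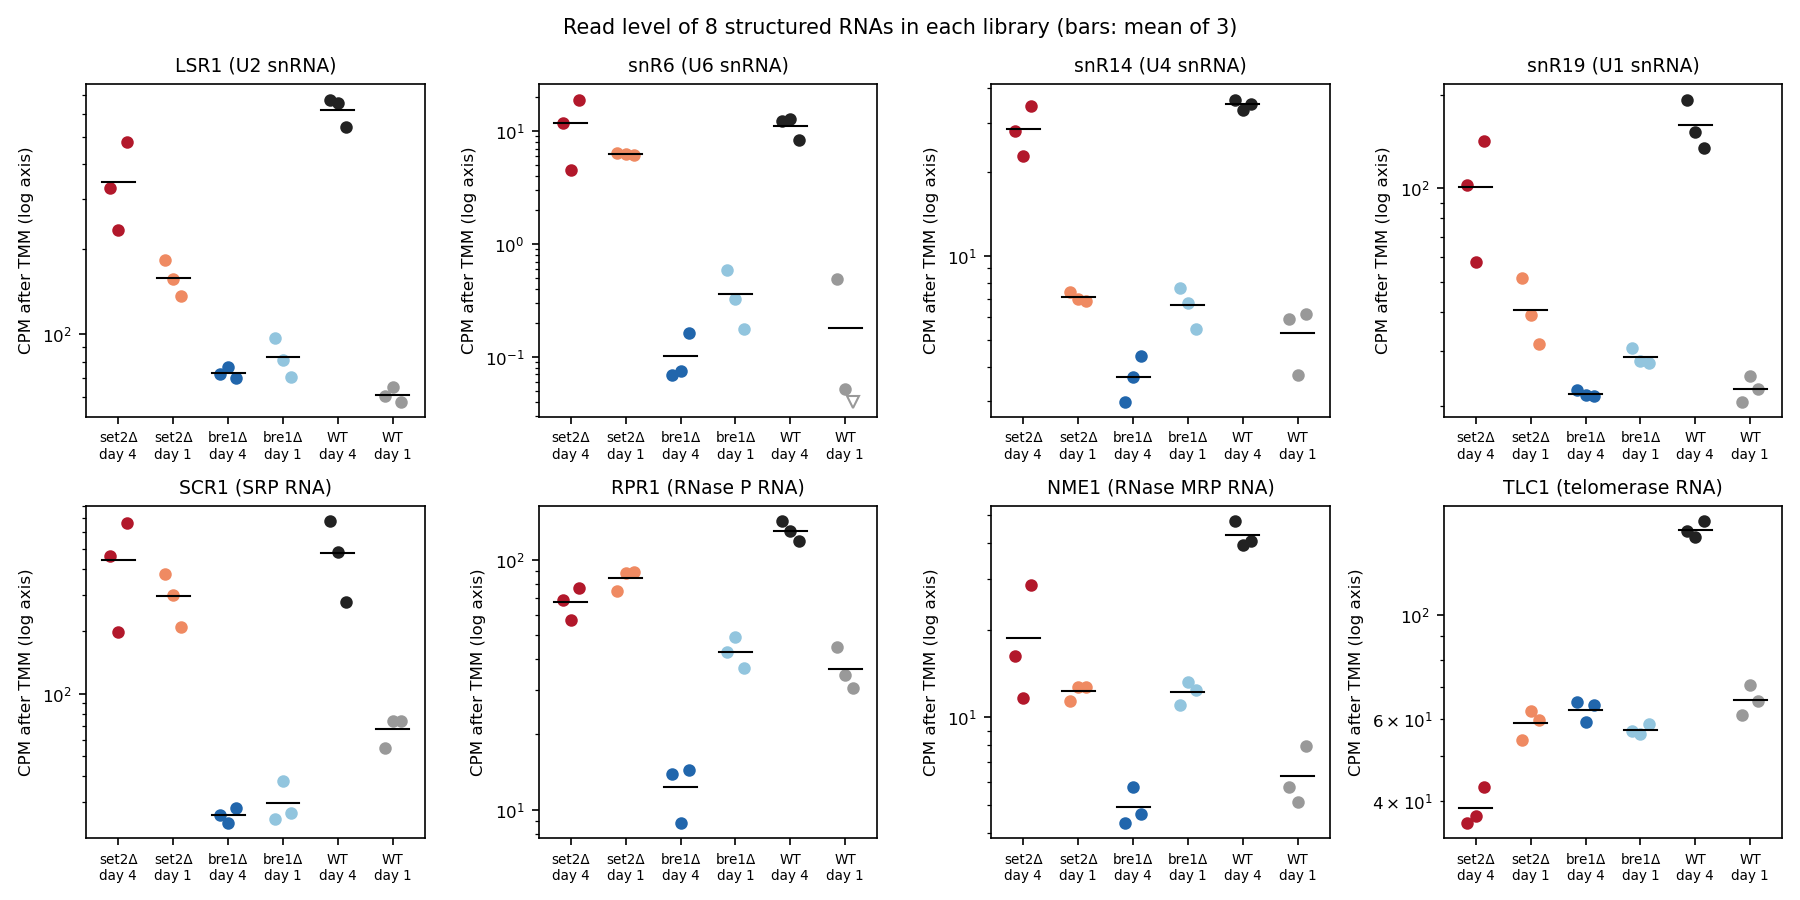
Read level of each of the 8 RNAs in each library, in CPM after TMM scaling on a log axis, with 1 panel per RNA, 3 libraries per group and bars at the mean. WT libraries of day 4 lie above all WT libraries of day 1 in every panel, and the open triangle in the U6 panel is the WT library of day 1 with 0 reads.

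U6 (snR6) lies at the heart of the spliceosome and is bound by the ring of Lsm2 to Lsm8 proteins. The set2Δ libraries held 98, 74 and 274 U6 reads at day 4 and 114, 133 and 115 reads at day 1. The bre1Δ libraries held 1, 1 and 5 reads at day 4 and 9, 8 and 3 reads at day 1. In WT there were 250, 291 and 183 reads at day 4 and 6, 1 and 0 reads at day 1. The libraries thus fell on either side of a gap: set2Δ at both days and WT at day 4 lay between 4.50 and 19.1 CPM after TMM, and bre1Δ at both days and WT at day 1 lay at or under 0.589 CPM. The WT library with no read allows a level of up to 0.174 CPM of its total, 3 counts at 95% confidence, counting error only.

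Divided by library totals, U6 reads were 74.7 times as frequent in WT at day 4 as at day 1, with a 95% counting interval of 36.1 to 186. They were 53.5 times as frequent in set2Δ as in WT at day 1 (25.7 to 134) and 0.0128 times as frequent in bre1Δ as in WT at day 4 (0.00512 to 0.0265). The fitted log2 fold changes were 6.15 ± 0.63 (SE; edgeR adjusted p = 1.6e-08) for the day effect in WT, 5.31 ± 0.69 (edgeR adjusted p = 5.35e-07) for set2Δ over WT at day 1 and -6.48 ± 0.62 (edgeR adjusted p = 3.34e-09) for bre1Δ over WT at day 4. Without replicate 1 of WT day 1, which held 6 of the 7 reads of that group, the day effect in WT was 8.28 and the difference of set2Δ over WT at day 1 was 7.44. Their ranges over all libraries left out in turn were 5.61 to 8.28 and 4.77 to 7.44, with each call kept. Without replicate 3 of bre1Δ day 4 the difference of bre1Δ over WT was -7.15. At day 4 set2Δ and WT overlapped, with a log2 fold change of 0.06 ± 0.32 (edgeR adjusted p = 0.879). In set2Δ the 3 libraries of day 4 spread on both sides of those of day 1, and the day effect of 0.90 ± 0.34 (edgeR adjusted p = 0.0219) rested on replicate 3 of day 4, without which it was 0.26 (edgeR adjusted p = 0.485); without replicate 2 it was 1.33 (edgeR adjusted p = 9.02e-05). It also missed the threshold without replicate 2 or 3 of set2Δ day 1 (edgeR adjusted p = 0.0509 and 0.0534) in DESeq2 (adjusted p = 0.128), with upper-quartile scaling (edgeR adjusted p = 0.0503) and in limma on FPKM (adjusted p = 0.331 and 0.575 with the 2 pseudocounts). In bre1Δ the day effect was -1.51 ± 1.21 (edgeR adjusted p = 0.262), and bre1Δ over WT at day 1 was 1.18 ± 1.22 (edgeR adjusted p = 0.391), both on few reads. The first ran from -2.18 to -1.10 and the other from 0.64 to 3.31 with each library left out in turn, and limma on FPKM with a pseudocount of 0.1 called the other (2.46, adjusted p = 0.0197).

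U2 (LSR1) pairs with the branch site of the intron. Its level was 329, 233 and 478 CPM in set2Δ at day 4 and 183, 157 and 136 CPM at day 1. In bre1Δ it was 72.2, 76.8 and 70.0 CPM at day 4 and 96.9, 81.1 and 71.0 CPM at day 1, and in WT 677, 656 and 539.9 CPM at day 4 and 60.7, 65.1 and 57.8 CPM at day 1. The groups ran in 3 steps, WT at day 4 above set2Δ at day 4 above set2Δ at day 1, with no overlap, and the bre1Δ libraries lay close to those of WT at day 1, which were the lowest. The day effect was 1.13 ± 0.17 in set2Δ (edgeR adjusted p = 4.73e-06), -0.19 ± 0.18 in bre1Δ (edgeR adjusted p = 0.35) and 3.35 ± 0.18 in WT (edgeR adjusted p = 7.77e-13). Against WT, set2Δ stood at 1.37 ± 0.18 at day 1 (edgeR adjusted p = 5.7e-07) and -0.85 ± 0.17 at day 4 (edgeR adjusted p = 9.05e-05), and bre1Δ stood at -3.10 ± 0.18 at day 4 (edgeR adjusted p = 7.74e-13). The difference of bre1Δ over WT at day 1, 0.43 ± 0.18 (edgeR adjusted p = 0.0369), missed the threshold in DESeq2 (adjusted p = 0.057). It also missed it when replicate 1 or 3 of WT day 1 or replicate 1 or 2 of bre1Δ day 1 was left out (edgeR adjusted p = 0.0773, 0.0942, 0.159 and 0.0745).

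U1 (snR19) pairs with the 5′ splice site. Its level was 102, 58.1 and 142 CPM in set2Δ at day 4 and 51.4, 39.1 and 31.5 CPM at day 1. In bre1Δ it was 22.5, 21.6 and 21.6 CPM at day 4 and 30.8, 27.8 and 27.5 CPM at day 1, and in WT 193, 151 and 135 CPM at day 4 and 20.6, 24.9 and 22.6 CPM at day 1. WT at day 4 was again highest, though the top library of set2Δ at day 4 reached into its range, and bre1Δ at day 4 overlapped with WT at day 1 at the bottom. The day effect was 1.31 ± 0.21 in set2Δ (edgeR adjusted p = 1.49e-05), -0.39 ± 0.24 in bre1Δ (edgeR adjusted p = 0.15) and 2.80 ± 0.23 in WT (edgeR adjusted p = 3.91e-10). Against WT, set2Δ stood at 0.83 ± 0.24 at day 1 (edgeR adjusted p = 0.00348) and -0.67 ± 0.20 at day 4 (edgeR adjusted p = 0.00475), and bre1Δ at -2.86 ± 0.23 at day 4 (edgeR adjusted p = 1.19e-10). The fall in set2Δ at day 4 missed the threshold when scaled by library size alone (-0.41, edgeR adjusted p = 0.0693) and in limma on FPKM (-0.48, adjusted p = 0.0713). For bre1Δ over WT at day 1 the difference was 0.32 ± 0.24 (edgeR adjusted p = 0.24). It passed the threshold by library size alone (0.62, edgeR adjusted p = 0.026), with the compared groups alone (0.33, edgeR adjusted p = 0.0117) and in limma on FPKM (0.62, adjusted p = 0.0243). The change between the days in bre1Δ passed with the compared groups alone (-0.39, edgeR adjusted p = 0.000868).

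U4 (snR14) travels base-paired with U6 until the spliceosome is activated. Its level was 27.9, 22.8 and 34.3 CPM in set2Δ at day 4 and 7.42, 6.97 and 6.87 CPM at day 1. In bre1Δ it was 2.99, 3.67 and 4.37 CPM at day 4 and 7.65, 6.78 and 5.46 CPM at day 1, and in WT 36.3, 33.4 and 34.9 CPM at day 4 and 5.91, 3.75 and 6.19 CPM at day 1. Here the day 4 libraries of set2Δ and WT formed a high group, and the 3 groups of day 1 lay close together. The change between the days was 1.999 ± 0.16 in set2Δ (edgeR adjusted p = 5.7e-10), -0.80 ± 0.20 in bre1Δ (edgeR adjusted p = 0.00103) and 2.75 ± 0.17 in WT (edgeR adjusted p = 4.15e-12). For bre1Δ over WT the difference was -3.20 ± 0.17 at day 4 (edgeR adjusted p = 1.76e-13) and 0.36 ± 0.20 at day 1 (edgeR adjusted p = 0.108), which passed without replicate 3 of WT day 1 (0.50, edgeR adjusted p = 0.0465). The difference of set2Δ over WT at day 1, 0.45 ± 0.19 (edgeR adjusted p = 0.0382), was lost without replicate 2 of WT day 1 (0.22, edgeR adjusted p = 0.305) and without any one of the 3 set2Δ libraries of day 1 (edgeR adjusted p = 0.0871, 0.0637 and 0.0566). At day 4 set2Δ over WT stood at -0.30 ± 0.14 (edgeR adjusted p = 0.0567), which became -0.47 (edgeR adjusted p = 0.00679) without replicate 3 of set2Δ day 4.

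Per length, in the deposited FPKM (fragments scaled by length and library total), U6 had 0.603 times the level of U4 in set2Δ at day 4 (median of 3 libraries, range 0.282 to 0.796) and 1.27 times at day 1 (1.23 to 1.29). The same ratio of levels was 0.0332 (0.0292 to 0.0533) and 0.0684 (0.0461 to 0.1099) in bre1Δ at day 4 and day 1, and 0.489 (0.342 to 0.555) and 0.0198 (0 to 0.117) in WT at day 4 and day 1. The ranges of bre1Δ at both days and WT at day 1 lay below those of the other 3 groups, on at most 9 U6 reads a library, so their own order is not resolved at this depth. U5, the fifth spliceosomal RNA, is listed by its long form, had 15 reads over all libraries and at most 3 in any, and was not tested.

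SCR1, the RNA scaffold of SRP, had the highest FPKM of the 8 RNAs in set2Δ at both days (means 883 at day 4 and 634 at day 1) and in WT at both days (799 and 113). Its level after TMM was 462, 199 and 664 CPM in set2Δ at day 4 and 376, 300.5 and 210.0 CPM at day 1. In bre1Δ it was 26.0, 23.8 and 28.1 CPM at day 4 and 25.0, 38.1 and 26.8 CPM at day 1, and in WT 679, 479 and 278 CPM at day 4 and 54.7, 74.1 and 74.1 CPM at day 1. Both set2Δ groups and WT at day 4 overlapped as a high group, WT at day 1 was intermediate, and bre1Δ was lowest at both days. Its libraries differed widely within groups, with a coefficient of variation of 52.9% in set2Δ and 41.9% in WT at day 4. The day effect was 2.82 ± 0.34 in WT (edgeR adjusted p = 1.9e-07) and -0.21 ± 0.38 in bre1Δ (edgeR adjusted p = 0.623). In set2Δ it was 0.58 ± 0.31 (edgeR adjusted p = 0.103), and 0.93 (edgeR adjusted p = 0.00372) without replicate 2 of day 4. Against WT, set2Δ stood at 2.12 ± 0.34 at day 1 (edgeR adjusted p = 7.8e-06) and at -0.12 ± 0.31 at day 4 (edgeR adjusted p = 0.736). For bre1Δ over WT the difference was -1.16 ± 0.36 at day 1 (edgeR adjusted p = 0.00674) and -4.19 ± 0.37 at day 4 (edgeR adjusted p = 8.52e-10). With TMM, SCR1 was the one RNA of the 8 with a fall of more than 2-fold in bre1Δ at day 1. By library size alone this fall was -0.87 on the log2 scale (edgeR adjusted p = 0.0319), less than 2-fold.

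RPR1, the catalytic RNA of RNase P, had 69.1, 57.3 and 77.1 CPM in set2Δ at day 4 and 75.1, 88.0 and 89.3 CPM at day 1. In bre1Δ it had 13.8, 8.84 and 14.4 CPM at day 4 and 42.6, 48.9 and 36.8 CPM at day 1, and in WT 142, 129.9 and 119 CPM at day 4 and 44.8, 34.5 and 30.6 CPM at day 1. WT at day 4 was highest and bre1Δ at day 4 lowest, both clear of all other groups, and the 2 set2Δ groups overlapped. The day effect was 1.84 ± 0.14 in WT (edgeR adjusted p = 1.41e-10) and -1.76 ± 0.16 in bre1Δ (edgeR adjusted p = 3.13e-09). In set2Δ it was -0.32 ± 0.14 (edgeR adjusted p = 0.044), a call lost in DESeq2 (adjusted p = 0.187). It was also lost without replicate 1 or 2 of set2Δ day 4 or replicate 2 or 3 of set2Δ day 1 (edgeR adjusted p = 0.0658, 0.244, 0.116 and 0.124). Against WT, set2Δ stood at 1.21 ± 0.14 at day 1 (edgeR adjusted p = 1.19e-07) and -0.95 ± 0.13 at day 4 (edgeR adjusted p = 1.69e-06). For bre1Δ over WT the difference was 0.24 ± 0.15 at day 1 (edgeR adjusted p = 0.146; 0.026 without replicate 1 of WT day 1) and -3.36 ± 0.16 at day 4 (edgeR adjusted p = 1.52e-14).

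NME1, the RNA of RNase MRP, had 16.3, 11.7 and 28.5 CPM in set2Δ at day 4 and 11.4, 12.8 and 12.7 CPM at day 1. In bre1Δ it had 4.31, 5.77 and 4.66 CPM at day 4 and 10.99, 13.2 and 12.4 CPM at day 1, and in WT 47.5, 39.3 and 40.6 CPM at day 4 and 5.75, 5.10 and 7.94 CPM at day 1. At day 1 the deletion strains overlapped with each other and lay above WT, and at day 4 WT lay above both. Between the days NME1 changed by 2.77 ± 0.22 in WT (edgeR adjusted p = 3.43e-10) and -1.34 ± 0.24 in bre1Δ (edgeR adjusted p = 4.74e-05). In set2Δ it was 0.62 ± 0.21 (edgeR adjusted p = 0.014) and rested on replicate 3 of day 4, without which it was 0.14 (edgeR adjusted p = 0.466). The call was also lost with upper-quartile scaling (0.48, edgeR adjusted p = 0.0514) and in limma on FPKM (0.41, adjusted p = 0.118 and 0.124 with the 2 pseudocounts). Against WT at day 1, both deletions stood at 0.98 ± 0.24 (edgeR adjusted p = 0.000992 for set2Δ and 0.00116 for bre1Δ). At day 4 the differences were -1.17 ± 0.20 for set2Δ (edgeR adjusted p = 1.63e-05) and -3.13 ± 0.23 for bre1Δ (edgeR adjusted p = 2.84e-11).

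TLC1 carries the template that telomerase copies onto chromosome ends. It had 35.9, 37.3 and 43.0 CPM in set2Δ at day 4 and 53.9, 62.2 and 59.7 CPM at day 1. In bre1Δ it had 65.0, 59.1 and 64.0 CPM at day 4 and 56.4, 55.6 and 58.5 CPM at day 1, and in WT 150.4, 147 and 158 CPM at day 4 and 61.1, 70.7 and 65.4 CPM at day 1. WT at day 4 was high, set2Δ at day 4 was low, and the 4 other groups stood close together, so that the highest group mean was 3.92 times the lowest, against 115 times for U6. Between the days it changed by -0.59 ± 0.07 in set2Δ (edgeR adjusted p = 3.37e-07), 0.14 ± 0.07 in bre1Δ (edgeR adjusted p = 0.0627; 0.034 without replicate 2 of bre1Δ day 4 and 0.042 with the compared groups alone) and 1.203 ± 0.07 in WT (edgeR adjusted p = 8.1e-13). At day 4, set2Δ over WT stood at -1.96 ± 0.07 (edgeR adjusted p = 6.63e-16) and bre1Δ over WT at -1.27 ± 0.07 (edgeR adjusted p = 1.05e-13). At day 1, with TMM, both deletions were lower than WT, at -0.17 ± 0.07 in set2Δ (edgeR adjusted p = 0.0311) and -0.21 ± 0.07 in bre1Δ (edgeR adjusted p = 0.00901). By library size alone TLC1 was called higher in set2Δ (0.20, edgeR adjusted p = 0.0234) and was not called in bre1Δ (0.08, edgeR adjusted p = 0.349). In limma on FPKM it was also called higher in set2Δ (0.20, adjusted p = 0.0328 and 0.0334 with the 2 pseudocounts). With TMM but without replicate 2 of WT day 1, the set2Δ and bre1Δ differences were -0.11 and -0.16 (edgeR adjusted p = 0.179 and 0.0679). Without replicate 1 of set2Δ day 1 the set2Δ difference was -0.11 (edgeR adjusted p = 0.165). The set2Δ difference also lost its call with upper-quartile scaling (-0.057, edgeR adjusted p = 0.478) and with the compared groups alone (-0.13, edgeR adjusted p = 0.141).

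**Figure D2:**
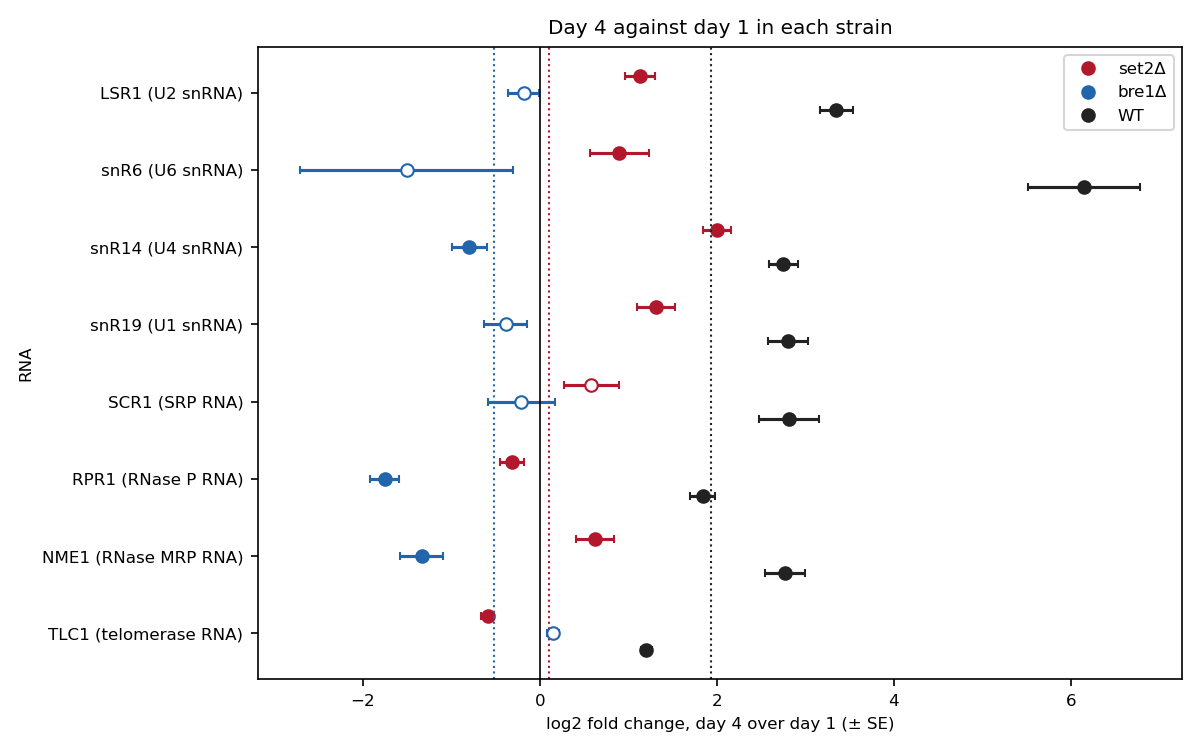
Log2 fold change of day 4 over day 1 for each RNA in set2Δ, bre1Δ and WT, with the SE derived from the F statistic. Filled points passed the threshold of 0.05 and open points did not. Dotted lines mark the median of the tested snoRNA rows in each strain. All WT points lie right of 0 with TMM scaling, while relative to snoRNA counts RPR1 (-0.48) and TLC1 (-1.103) lie left of it.

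**Figure D3:**
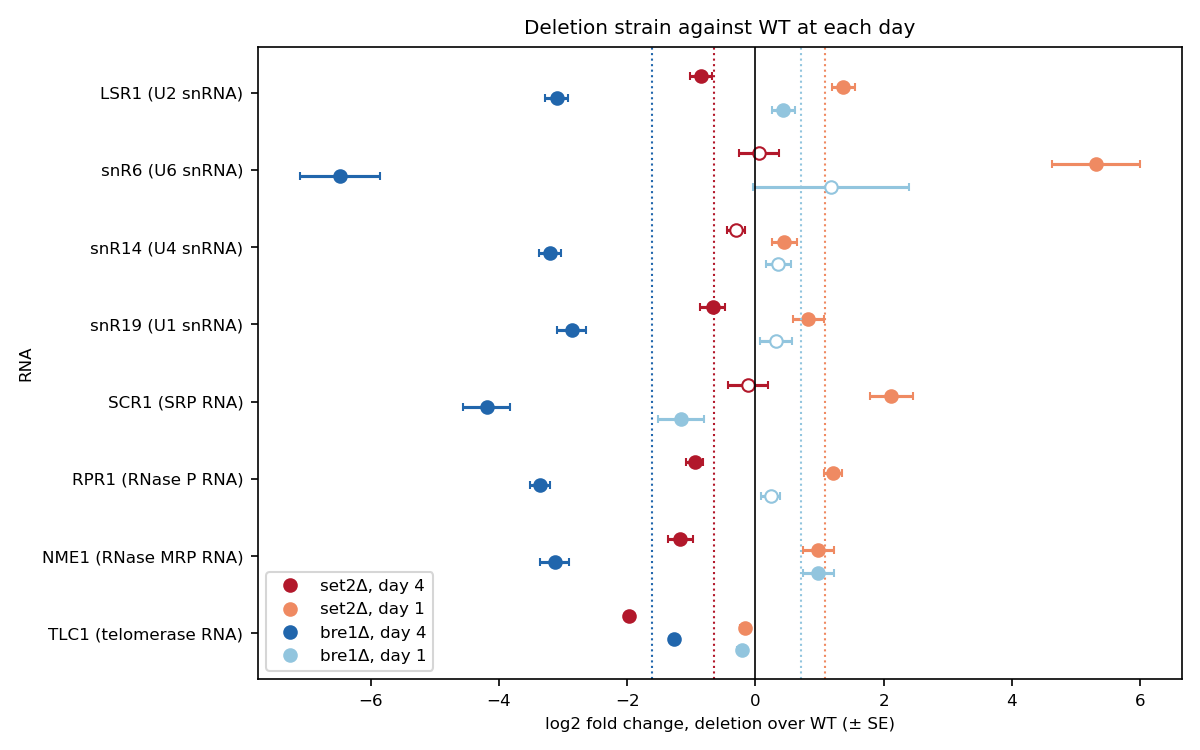
Log2 fold change of each deletion over WT at day 4 and day 1, with the SE derived from the F statistic. Filled points passed the threshold of 0.05 and open points did not. Dotted lines mark the median of the tested snoRNA rows in each comparison. All bre1Δ points of day 4 lie left of 0, with TLC1 nearest to it at -1.27; by library size alone the TLC1 points of day 1 (0.20 and 0.08) and the SCR1 point of set2Δ at day 4 (0.14) turn positive.

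The day effect itself differed from that of WT for all 8 RNAs in both deletions. The difference, tested as an interaction term, ran from -0.75 ± 0.24 for U4 (edgeR adjusted p = 0.00769) to -5.25 ± 0.81 for U6 (edgeR adjusted p = 6.19e-06) in set2Δ. In bre1Δ it ran from -1.06 ± 0.10 for TLC1 (edgeR adjusted p = 2.43e-09) to -7.66 ± 1.52 for U6 (edgeR adjusted p = 0.000121). Among all tested genes 34.8% were called higher and 37.9% lower in the set2Δ interaction (72.7% in all), and 40% higher and 36.9% lower in the bre1Δ interaction (76.9% in all). Both interactions use the same WT libraries, and for U6 they ran from -7.38 to -4.72 in set2Δ and from -9.79 to -7.12 in bre1Δ with each library left out in turn, farthest from 0 without replicate 1 of WT day 1.

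Small nucleolar RNAs (snoRNAs) guide rRNA modification and also lack a poly(A) tail when mature. With TMM their median log2 fold change had the sign of the median of the 8 RNAs in every comparison. Of 76 snoRNA rows 74 were tested, and at day 4 against day 1 in WT 61 were higher and 1 lower, with a median log2 fold change of 1.93. As shares of the tested rows this is 82.4% and 1.35%, against 37.2% and 40.5% of all tested genes. In bre1Δ against WT at day 4, 6 were higher and 52 lower (8.11% and 70.3%, against 44.8% and 41.6% of all, median -1.61). In set2Δ against WT, 51 were higher and 3 lower at day 1 (68.9% and 4.05%, against 37.9% and 39.5%, median 1.09). At day 4, 3 were higher and 39 lower (4.05% and 52.7%, against 34.7% and 44%, median -0.64). Between the days in bre1Δ 9 rose and 33 fell (12.2% and 44.6%, against 37.9% and 38.4%, median -0.52). With TMM the counts parted for bre1Δ over WT at day 1, where 2 of the 8 RNAs were higher and 2 lower (median 0.34). There 41 snoRNA rows were higher and 3 lower (55.4% and 4.05%, against 35.8% and 35.8% of all, median 0.71). By library size alone U2, U1, U4, RPR1 and NME1 passed as higher and SCR1 as lower, and 56 snoRNA rows were higher and 1 lower. In set2Δ 23 snoRNA rows rose and 15 fell between the days with TMM (31.1% and 20.3%, against 34.3% and 37.3%, median 0.10). This balance turned to 15 and 17 by library size alone. In the set2Δ interaction 0 were higher and 60 lower (81.1% lower, against 37.9%, median -1.80). In the bre1Δ interaction 1 was higher and 58 lower (78.4% lower, against 36.9%, median -2.31). The snoRNA share of all counts averaged 0.146% at day 4 and 0.115% at day 1 in set2Δ, 0.0561% and 0.0709% in bre1Δ, and 0.213% and 0.0427% in WT. The 8 RNAs took 0.1101% and 0.0743% in set2Δ, 0.0215% and 0.0278% in bre1Δ, and 0.143% and 0.0231% in WT. In set2Δ at day 4 the snoRNA share was 0.140%, 0.111% and 0.187% in replicates 1, 2 and 3, high and low in the same libraries as the 8 RNAs.

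**Figure D4:**
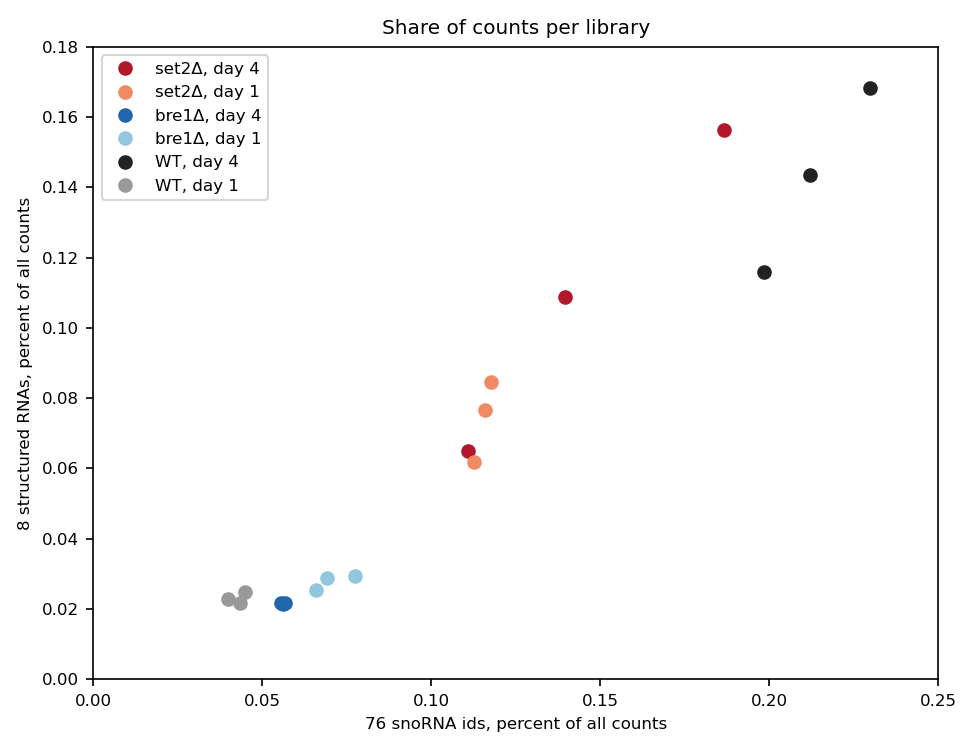
Share of all counts taken by the 8 RNAs (y axis, percent) against the share taken by 76 snoRNA rows (x axis, percent), 1 point per library. WT libraries of day 4 lie at the upper right with replicate 3 of set2Δ day 4 near them. Libraries of bre1Δ at both days and of WT at day 1 lie at the lower left, with at most 0.0293% for the 8 RNAs. The set2Δ libraries other than replicate 3 of day 4 lie between.

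When library sizes were set to the summed snoRNA counts, a scaling chosen after the data were seen, all 8 RNAs moved by nearly the same amount within a comparison, which leaves their spacing as it was and moves the zero. The shift was -2.34 to -2.29 on the log2 scale between the days in WT, 2.15 to 2.21 for bre1Δ over WT at day 4, -1.09 to -1.04 for set2Δ over WT at day 1 and 0.74 to 0.84 at day 4. The values that follow therefore place each RNA relative to the snoRNA rows. In WT, 6 of them were still higher at day 4 than at day 1, while RPR1 (-0.48, edgeR adjusted p = 0.00345) and TLC1 (-1.103, edgeR adjusted p = 5.87e-12) were lower. In bre1Δ against WT at day 4, TLC1 was higher on this scale (0.91, edgeR adjusted p = 1.15e-08) and the other 7 were lower. In set2Δ against WT at day 1, 4 passed the threshold on this scale in place of 8. Of these, U6 and SCR1 were higher, and U4 (-0.63, edgeR adjusted p = 0.00485) and TLC1 were lower. In set2Δ against WT at day 4, U6 (0.79, edgeR adjusted p = 0.00121), U4 (0.52, edgeR adjusted p = 0.00923) and SCR1 (0.65, edgeR adjusted p = 8.18e-05) were higher on it. NME1 (-0.41, edgeR adjusted p = 0.0409) and TLC1 stayed lower.

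Across the 18 libraries, the log2 levels of U6, U2, U1, U4, SCR1, RPR1 and NME1 followed each other, with Pearson's r of 0.758 to 0.986 over 21 pairs. TLC1 followed them less, with r of 0.166 to 0.502 over 7 pairs. These are descriptions over libraries that share groups and depth. The tested gene with the most similar pattern was the snoRNA gene SNR30 for U2 (r = 0.990) and for U1 (r = 0.977), SNR3 for U6 (r = 0.980) and SNR9 for SCR1 (r = 0.962). For the others it was a protein-coding gene: CCL1 for U4 (r = 0.976), CDC42 for RPR1 (r = 0.991), CDC40 for NME1 (r = 0.960) and UTH1 for TLC1 (r = 0.976).

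Of 15 tested neighbours, 9 were called the same way as the RNA beside them between the days in WT, 5 the other way and 1 was not called. All 8 RNAs were higher there, so the 9 are 60% of the neighbours, where 37.2% of all tested genes were called higher. The 9 include the snoRNA genes SNR66 and SNR161, and 82.4% of snoRNA rows were called higher there. The counts for bre1Δ over WT at day 4 were 8, 5 and 2, and the 8 are 53.3%, where 41.6% of all tested genes were called lower. Elsewhere the share ran from 6.67% for bre1Δ over WT at day 1, where 4 of the 8 RNAs were not called, to 60% in both interactions. TIM9, 192 bases from RPR1 on the opposite strand, encodes a chaperone of the mitochondrial intermembrane space and averaged 9.46 ± 1.87 CPM in set2Δ at day 4 and 17.4 ± 0.82 CPM at day 1, 1.78 ± 0.35 and 3.67 ± 0.45 CPM in bre1Δ, and 17.5 ± 1.46 and 2.92 ± 0.41 CPM in WT (SD, n = 3 each). Like RPR1, it was lower in bre1Δ than in WT at day 4 (-3.32, edgeR adjusted p = 3.77e-14). PXP1, 581 bases from RPR1 on the same strand, was higher there (2.45). SNR161, 241 bases from TLC1 on the opposite strand, rose by 3.51 on the log2 scale between the days in WT (edgeR adjusted p = 7.24e-08). SNR161 had 30 reads over the WT libraries of day 1 and 477 over those of day 4. The strand setting of the counting is not given in the sources used here, so reads that run over from an opposite neighbour cannot be told apart from the RNA's own.

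Genes for the proteins that bind or process these RNAs went the way of the RNAs in some comparisons and not in others. Of 113 such genes tested in 11 lists, 46 were higher and 43 lower at day 4 than at day 1 in WT (40.71% and 38.05%), close to the shares among all genes, and 36 and 49 with upper-quartile scaling. In set2Δ against WT at day 1, where 7 of the 8 RNAs were higher, 72 were higher and 17 lower (63.72% and 15.04%, against 37.9% and 39.5% of all genes). The counts for bre1Δ over WT at day 1 were 69 and 13 (61.06% and 11.5%, against 35.8% and 35.8%). In the set2Δ interaction, where all 8 RNAs were lower, 29 were higher and 50 lower (25.66% and 44.25%, against 34.8% and 37.9%). In bre1Δ against WT at day 4, where all 8 RNAs were lower, 60 were higher and 34 lower (53.1% and 30.09%, against 44.8% and 41.6%). By library size alone the counts of that comparison were 77 and 25.

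Among spliceosomal proteins, LEA1, which encodes a U2 particle protein, averaged 57.2 ± 3.43 CPM in set2Δ at day 4 and 57.8 ± 2.44 CPM at day 1, 59.2 ± 2.46 and 70.3 ± 4.37 CPM in bre1Δ, and 103 ± 1.90 and 45.2 ± 3.14 CPM in WT (SD, n = 3 each). It rose in WT by 1.19 on the log2 scale between the days (edgeR adjusted p = 2.42e-13), while 7 of the 11 U2 protein genes rose and 3 fell. Among all tested genes 37.2% were called higher there and 40.5% lower. SNU13, whose product binds U4 and box C/D snoRNAs, averaged 13.3 ± 1.42 CPM in set2Δ at day 4 and 35.5 ± 1.56 CPM at day 1, 164 ± 7.48 and 29.4 ± 4.18 CPM in bre1Δ, and 110.2 ± 4.24 and 20.5 ± 3.91 CPM in WT (SD, n = 3 each). SNU13 was thus high at day 4 in bre1Δ and WT and low in set2Δ, unlike U4, which was low in bre1Δ. SNU114, a GTPase of the U5 particle, was higher than WT at day 4 in set2Δ (1.42, edgeR adjusted p = 3.67e-16) and in bre1Δ (1.36, edgeR adjusted p = 2.13e-16). Of the 16 genes for U4/U6 and U5 proteins, 9 were higher and 4 lower in set2Δ, and 10 were higher and 4 lower in bre1Δ, against WT at day 4. Among all tested genes 34.7% were called higher and 44% lower in set2Δ, and 44.8% and 41.6% in bre1Δ. Of 6 tested Lsm genes, 5 were lower and 0 higher in bre1Δ than in WT at day 4, or 3 and 1 by library size alone, and LSM7 stood at -1.16 (edgeR adjusted p = 3.16e-10).

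The SRP protein genes moved apart: in WT SRP14 rose by 1.30 on the log2 scale between day 1 and day 4 (edgeR adjusted p = 1.23e-14) and SRP68 fell by 1.02 (edgeR adjusted p = 1.07e-12). In bre1Δ against WT at day 4, where SCR1 was lower, SRP14 was lower (-1.21, edgeR adjusted p = 9.02e-15) while SRP68 (1.65, edgeR adjusted p = 1.05e-16) and SRP72 (1.59, edgeR adjusted p = 9.17e-17) were higher. Of the 11 RNase P and MRP protein genes, 2 rose and 7 fell between the days in WT. Among all tested genes 37.2% were called higher there and 40.5% lower, and RPR1 and NME1 were higher. POP5, which encodes a subunit of both enzymes, was higher in bre1Δ than in WT at day 4 (1.35, edgeR adjusted p = 4.14e-11). The telomerase list held EST1, EST2 and EST3, and YKU70 and YKU80 of the Ku protein. All 5 genes of this list fell between the days in bre1Δ, and 1 rose and 4 fell in WT. Among all tested genes 38.4% were called lower in bre1Δ and 40.5% in WT. EST2, the reverse transcriptase, averaged 71.7 ± 7.39 CPM in set2Δ at day 4 and 64.7 ± 7.60 CPM at day 1, 28.3 ± 2.61 and 38.8 ± 2.49 CPM in bre1Δ, and 13.8 ± 0.66 and 28.9 ± 1.51 CPM in WT (SD, n = 3 each). At day 4 EST2 was therefore higher in set2Δ than in WT (2.38, edgeR adjusted p = 4.64e-15) where TLC1 was lower.

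Genes for the nuclear exosome and TRAMP, which trim and degrade such RNAs, were higher in bre1Δ than in WT at both days: 14 of 17 were called higher and 2 lower at day 4 (82.4% and 11.8%, against 44.8% and 41.6% of all tested genes), and 15 higher and 0 lower at day 1 (88.2% higher, against 35.8% of all). MTR3, an exosome subunit, stood at 2.28 at day 4 (edgeR adjusted p = 3.63e-15), and CSL4, another subunit, at -1.24 (edgeR adjusted p = 7.05e-15). Between the days in WT, where all 8 RNAs rose, 10 of the 17 genes rose and 4 fell. These are 58.8% and 23.5%, against 37.2% and 40.5% of all tested genes. In the set2Δ interaction, where all 8 RNAs were lower, 4 were higher and 12 lower. These are 23.5% and 70.6%, against 34.8% and 37.9%. A relation of these genes to the RNAs was not tested. NRD1, which acts in the termination of short noncoding transcripts, averaged 119 ± 4.66 CPM in set2Δ at day 4 and 81.7 ± 9.56 CPM at day 1, 276 ± 19.7 and 51.5 ± 8.05 CPM in bre1Δ, and 43.3 ± 0.29 and 64.2 ± 12.4 CPM in WT (SD, n = 3 each). Of the 12 genes of 3′ end maturation and termination, 6 were higher and 5 lower in bre1Δ than in WT at day 4, close to even. SPT15, the TATA-binding protein used by all 3 nuclear RNA polymerases, averaged 188 ± 3.61 CPM in set2Δ at day 4 and 137 ± 8.07 CPM at day 1, 70.2 ± 1.39 and 77.4 ± 3.99 CPM in bre1Δ, and 439 ± 18.8 and 75.3 ± 8.30 CPM in WT (SD, n = 3 each). It rose in WT by 2.54 on the log2 scale between the days (edgeR adjusted p = 4.49e-18) and was lower in bre1Δ than in WT at day 4 (-2.64, edgeR adjusted p = 1e-18). MAF1, the repressor of RNA polymerase III, fell in WT by 0.87 between the days (edgeR adjusted p = 6.89e-13). Of the 10 RNA polymerase III factor genes, 3 rose and 6 fell between the days in WT, against 37.2% and 40.5% of all tested genes.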

How the data were processed

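RNA-seq libraries of poly(A) RNA were made with a PowerPrep Rapid mRNA-Seq kit from 18 samples, 3 in each of 6 groups, per the labels. Per the submitters' processing notes, tools named are FastQC 0.11.8, cutadapt 2.6, STAR 2.7.0b, HTSeq 2.0.2, R 4.2.0 and DESeq2 1.36.0, with build sacCer3. The strand setting and annotation of the counting are not given in the sources used here. The authors deposited raw counts per gene, which were used for all tests, and FPKM, which served for levels per length and in alternatives. FPKM followed from the counts, the column totals and a length that matched the annotated one of each RNA. Of 6837 rows, 5926 matched a locus tag, 99 a symbol and 6 a synonym of R64, and 806 kept the table's name.

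Genes were tested with edgeR 4.0.16 in R 4.3.3: rows were filtered with filterByExpr, which left 6320 genes and removed 517. Library sizes were scaled by TMM, and quasi-likelihood F tests were taken from a single model in which every group has its own mean. The groups share 1 estimate of spread. The SE given with a log2 fold change is its absolute value divided by the square root of the F statistic. The procedure was tested on simulated data. Replicate numbers were not treated as pairs. Named genes are the 8 RNAs, U5, SET2 and BRE1, marker genes of the strain, the neighbours of each RNA, up to 3 genes of each partner list with the smallest adjusted p, and the 3 genes most correlated with each RNA, of which the first is given. The members and lists were chosen with earlier results of these data known. Alternatives were DESeq2 1.42.0, other scalings, no filter, a replicate block, the compared groups alone, limma 3.58.1 on log2 FPKM with a pseudocount of 0.1 or 1, and leaving out each library. Scaling by snoRNA counts was added after seeing the data. Library totals ranged from 8038470 to 29514490, and intervals or floors from counts hold for counting error alone, because PCR copies were not told apart from molecules.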

Additional observations from a re-analysis of the deposited data

Results flagged for a closer look

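The day 4 over day 1 effect differed from that of WT in both deletions for all 8 RNAs, each tested as an interaction term in edgeR over all genes with 3 libraries per group. In set2Δ the difference in log2 fold change from WT was -5.25 for snR6, -2.22 for LSR1, -1.49 for snR19, -0.75 for snR14, -2.24 for SCR1, -2.16 for RPR1, -2.15 for NME1 and -1.80 for TLC1, with edgeR adjusted p of at most 0.00769. In bre1Δ it was -7.66 for snR6, -3.53 for LSR1, -3.19 for snR19, -3.55 for snR14, -3.03 for SCR1, -3.60 for RPR1, -4.11 for NME1 and -1.06 for TLC1, with edgeR adjusted p of at most 0.000121. For snR6 the values ran from -7.38 to -4.72 in set2Δ and from -9.79 to -7.12 in bre1Δ with each library left out in turn. All kept their direction and side of the threshold under every alternative except scaling by snoRNA counts. The snoRNA rows shared this: of 74 tested, 60 were lower and 0 higher in the set2Δ interaction, and 58 lower and 1 higher in the bre1Δ interaction. The lower rows are 81.1% and 78.4%, against 37.9% and 36.9% of all tested genes. The order differed between the deletions: TLC1 differed more from WT in set2Δ than in bre1Δ, and the other 7 differed more in bre1Δ, which was not tested.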

How the results depend on the processing

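All 8 calls between the days in WT, in bre1Δ against WT at day 4 and in both interactions were kept without any one library. Leaving out each library gave 5 to 7 RNAs called between the days in set2Δ, 3 to 4 in bre1Δ, 6 to 8 for set2Δ and 3 to 4 for bre1Δ over WT at day 1, and 5 to 6 for set2Δ over WT at day 4. With all libraries, 71.6%, 76.4%, 77.4%, 71.6% and 78.7% of all tested genes were called in these comparisons, in the same order. Leaving out a library changed the sign of uncalled log2 fold changes, which ran from -0.55 to 0.24 (SCR1) and -0.58 to 0.49 (snR6) for set2Δ over WT at day 4 and from -0.32 to 0.0369 for SCR1 between the days in bre1Δ. By library size alone TLC1 at day 1 was 0.20 in set2Δ (edgeR adjusted p = 0.0234, called higher) and 0.080 in bre1Δ over WT, and SCR1 at day 4 was 0.14 in set2Δ over WT. With limma on FPKM these were 0.20, 0.087 and 0.0658 with a pseudocount of 1 and 0.20, 0.089 and 0.0657 with one of 0.1, and with the smaller one 7 RNAs passed for bre1Δ over WT at day 1. With the compared groups alone 5 passed between the days in bre1Δ. Counts of all genes past the threshold stayed within 1.5 times in every setting.

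Replicate numbers did not meet the bar for pairing. Deviations of libraries with the same number correlated at -0.164 to 0.274 (median -0.018), against -0.208 to 0.149 for different numbers (median 0.0042). As a hint from the data, 9 of 18 libraries correlated best with their own number. With a replicate block, snR6 in set2Δ over WT at day 4 was -0.0078 and snR14 passed (-0.31, edgeR adjusted p = 0.0415), so that 6 RNAs were called in place of 5.

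Scaling by snoRNA counts, chosen after seeing the data, turned the direction of 19 values. By its construction it shifts all RNAs of a comparison nearly alike, so the values that turned are those closer to 0 than the shift. Between the days RPR1 was -0.48 and TLC1 -1.10 in WT, and LSR1 0.14 and SCR1 0.10 in bre1Δ. For set2Δ over WT, snR14 was -0.63, snR19 -0.24 and NME1 -0.10 at day 1, with 4 RNAs called, and snR14 0.52, snR19 0.11 and SCR1 0.65 at day 4. For bre1Δ over WT, LSR1 was -0.0015, snR14 -0.10, snR19 -0.10 and RPR1 -0.20 at day 1, and TLC1 0.91 at day 4. In the interactions snR14 was 1.15, snR19 0.35 and TLC1 0.11 in set2Δ, with 2 RNAs called, and TLC1 1.55 in bre1Δ. Depth limits snR6 most, with 0 to 9 reads per library in bre1Δ and in WT at day 1.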

Other observations

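Transfer RNA rows, which like SCR1 and RPR1 are products of RNA polymerase III, gave few reads, and 71 of 264 were tested. Between day 4 and day 1 in set2Δ, 5 were higher and 22 lower by edgeR (7.04% and 31%, against 34.3% and 37.3% of all tested genes). In bre1Δ 22 were higher and 10 lower (31% and 14.1%, against 37.9% and 38.4%). In WT 17 were higher and 13 lower (23.9% and 18.3%, against 37.2% and 40.5%). In bre1Δ against WT at day 4, where all 8 structured RNAs were lower, 35 tRNA rows were higher and 15 lower, with a median log2 fold change of 0.70. These are 49.3% and 21.1% of the tRNA rows tested, against 44.8% and 41.6% of all tested genes. In set2Δ against WT at day 4, 5 were higher and 12 lower (median -0.28). These are 7.04% and 16.9%, against 34.7% and 44% of all tested genes.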
